A study of Mus musculus with 6 samples.

Results

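The cytochrome P450 genes of the Cyp2b, Cyp3a and Cyp2a subfamilies that respond to the nuclear receptors CAR and PXR were examined in mouse liver with and without SIRT7, a sirtuin of the cell nucleus that removes acyl groups from proteins at the expense of NAD. The genes were chosen by name (Cyp2b9, Cyp2b10, Cyp2b13, Cyp3a11, Cyp3a13, Cyp3a16, Cyp3a25, Cyp2a5 and Por) and were taken where a probe set of the array carries exactly 1 gene symbol in the platform annotation. Of the 9 listed genes 7 had such a probe set, among 12393 genes of the array in all, and where a gene had several, the one with the highest average over the 6 arrays stands for it. Cyp2a5 is measured by 1 probe set that it shares with its paralog Cyp2a4 and is given as a shared signal, and Por, the reductase gene, was not analysed here because the annotation table names no probe set for it.

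The samples were livers of wild-type mice (3 samples) and of SIRT7 knockout mice (3 samples), each hybridised to its own 1-colour Affymetrix array. The labels describe the genotype by the sirt7 allele alone, wild-type or knock-out, and state that all samples shared the same treatment conditions. Strain, age, sex, diet, time of dissection, and whether the allele was deleted in the whole animal or in a single cell type, are details the labels leave out. Sirt7 itself was at log2 values of 9.85, 9.80 and 9.57 in the wild-type livers and at 2.38, 3.11 and 2.86 in the knockout livers, which follows the labels.

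Cytochromes of these subfamilies sit in the endoplasmic reticulum of hepatocytes and oxidise drugs, steroids and other lipophilic molecules, with electrons delivered by the reductase encoded by Por. CAR (Nr1i3) and PXR (Nr1i2) bind DNA as heterodimers with RXR alpha (Rxra) and switch these genes on when drugs or endogenous steroids and bile acids are present. Cyp2b10 is the classical target of CAR and Cyp3a11 that of PXR in mouse liver. Cyp2b9, Cyp2b13, Cyp3a16 and Cyp3a41 are also known for sex-biased expression, being higher in the female liver under the control of the growth hormone pattern.

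The promoters of the Cyp2b and Cyp2a genes show how closely the paralogs resemble each other around their start sites. Transcript and probe sequences were not compared, so this likeness does not tell what a probe set can separate. In the RefSeq gene order of assembly GRCm38.p6, Cyp2b10, Cyp2b13 and Cyp2b9 follow each other on chromosome 7 with 0 other protein-coding genes between them, and Cyp2a4 and Cyp2a5 lie further along the same cluster. The 250 bases before the annotated start site are printed here from RefSeq (GRCm38.p6, plus strand, read 5′ to 3′) for chr7:25897408-25897657 (Cyp2b10), chr7:26835089-26835338 (Cyp2a5), chr7:26061245-26061494 (Cyp2b13) and chr7:26173159-26173408 (Cyp2b9). In the first pair the capitals mark the letters TTGCATAA, and in the second pair the bases at which Cyp2b13 and Cyp2b9 differ.
Cyp2b10: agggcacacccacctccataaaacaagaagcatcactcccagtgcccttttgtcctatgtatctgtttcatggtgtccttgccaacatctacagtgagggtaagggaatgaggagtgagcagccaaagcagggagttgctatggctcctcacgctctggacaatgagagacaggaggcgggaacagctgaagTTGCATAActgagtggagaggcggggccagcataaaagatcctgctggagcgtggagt
Cyp2a5: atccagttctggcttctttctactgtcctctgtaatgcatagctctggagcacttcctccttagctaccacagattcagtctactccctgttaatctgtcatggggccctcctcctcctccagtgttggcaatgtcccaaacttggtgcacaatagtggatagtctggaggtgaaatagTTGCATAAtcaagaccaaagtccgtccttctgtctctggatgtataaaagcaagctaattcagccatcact
Cyp2b13: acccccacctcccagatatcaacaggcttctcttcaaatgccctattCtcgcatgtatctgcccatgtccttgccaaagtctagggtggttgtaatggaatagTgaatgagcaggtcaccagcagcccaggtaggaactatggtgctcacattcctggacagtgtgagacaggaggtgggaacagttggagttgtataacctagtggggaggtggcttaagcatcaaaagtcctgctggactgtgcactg
Cyp2b9: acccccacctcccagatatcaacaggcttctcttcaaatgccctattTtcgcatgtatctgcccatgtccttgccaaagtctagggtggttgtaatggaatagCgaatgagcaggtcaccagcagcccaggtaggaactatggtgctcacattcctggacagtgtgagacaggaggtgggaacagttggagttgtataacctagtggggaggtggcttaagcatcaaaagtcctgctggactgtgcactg

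Over windows of 300 bases (250 before and 50 after the start site), Cyp2b13 and Cyp2b9 were identical at 298 positions and differed by C48T and T104C, counted from the 5′ end of the window with the Cyp2b13 base first. Cyp2b10 shared 71.7% of aligned columns with each of them. Among the promoters of the 4 listed Cyp3a genes, Cyp3a11 and Cyp3a16 were the most alike pair, at 74.8%; those of Cyp3a41a, Cyp3a41b and Cyp3a44 were not part of this alignment.

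The letters TTGCATAA, on the strand of the gene and read as TTATGCAA on the opposite strand, begin 58 bases before the start site of Cyp2b10 and 71 bases before that of Cyp2a5. This motif is the type bound by the clock output factors DBP, TEF and HLF and by C/EBP proteins, and it occurs on either strand in 0.792% of the 27025 promoters in the table. It is in 2 of the 9 promoters of the listed genes, and in the alignment with Cyp2b10 the Cyp2b9 promoter reads TTGTATAA at the same place, a C4T difference counted from the first letter of the motif.

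The nuclear receptor half-site AGGTCA was found on either strand in 5 of the 9 promoters (Cyp3a11, Cyp3a25, Cyp2b13, Cyp2b9 and Cyp2a5), against 16% of all promoters. Cyp2b13 and Cyp2b9 hold it at the same place, 138 bases before the start site, in windows identical at 298 of 300 bases. These 2 are therefore not separate cases. In Cyp2a5 the half-site lies after the start site, beyond the printed bases. The other half-site, AGTTCA, was found in Cyp3a11 alone, against 14%. The paired forms were searched as a direct repeat of AGGTCA with 4 bases between, a direct repeat of AGTTCA with 4 bases between, an everted repeat of AGTTCA with 6 bases between and a direct repeat of AGGTCA with 1 base between. They and the clock output motifs TTATGTAA and TTACGTAA had 0 exact matches in the 9 windows. The shares over all promoters were 0.0111%, 0.0148%, 0.0074%, 0.0444%, 0.955% and 0.107% in that order, and each half-site is contained in the paired forms built from it. The paired forms were so rare over all promoters that 0 matches among 9 carries little information. Bases outside the 300-base windows were not searched, so sites elsewhere at these genes were not examined. These matches describe letters, and binding was not measured.

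Cyp2b10 was the listed gene that separated the groups most clearly. Its log2 values, given here and in later sentences in the order of replicates 1 to 3, were 5.63, 7.86 and 7.66 in wild-type livers and 9.79, 8.11 and 9.06 in knockout livers. All knockout livers lay above all wild-type livers, although the gap between the highest wild-type and the lowest knockout liver was only 0.25, against ranges of 2.23 within wild type and 1.68 within knockout. The group values were 7.05 ± 1.23 and 8.99 ± 0.84 (log2, SD, n = 3 each), a difference of 1.94 (SE 0.61, 95% interval 0.55 to 3.33, 3.83-fold). The unadjusted limma p was 0.012 and the adjusted p over 8343 genes was 0.746, so the difference did not pass the threshold of 0.05 after adjustment.

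The other probe sets of Cyp2b10 gave differences of 1.77 (SE 0.60) and 2.14 (SE 0.68), with the groups apart by 0.07 and 0.03. Wild-type replicate 1 was the lowest and knockout replicate 1 the highest liver on each of the 3 probe sets, so they show the same livers in the same extreme places. A 2-sided exact permutation test of the mean difference gave p = 0.1 for each, the smallest value that 3 against 3 livers allow. Without wild-type replicate 1 the difference was 1.23, and without knockout replicate 1 it was 1.53. The probe set names mark 2 of the 3 as matching several transcripts, and signal from a Cyp2b paralog in these values was not tested.

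Cyp2b9, a female-biased steroid hydroxylase gene, split the livers within both groups. It was at 2.17, 2.41 and 5.97 in wild-type livers and at 7.50, 6.06 and 2.89 in knockout livers. Wild-type replicate 3 and knockout replicates 1 and 2 were high, while the other livers lay under 4, in the low part of the scale. The difference between groups was 1.97 (SE 1.26, 95% interval -0.90 to 4.84, adjusted p = 0.796 by limma). Leaving out single livers moved it to 3.26 (knockout replicate 3), 3.19 (wild-type replicate 3), 1.29 (wild-type replicate 1) and 0.96 (knockout replicate 1).

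Cyp2b13, the paralog whose promoter differs from that of Cyp2b9 at 2 positions, was near the lower end of the scale in every liver, between 1.80 and 2.106 in wild type and between 1.78 and 2.10 in knockout. It was under the expression filter, a mean log2 value of 4, and its difference in the fit without that filter was -0.04 (SE 0.16). Of the livers with high Cyp2b9, wild-type replicate 3 (2.106) and knockout replicate 1 (2.102) were also the highest for Cyp2b13, and knockout replicate 2 (1.78) was the lowest. With all values this low, the probe set cannot show whether Cyp2b13 followed Cyp2b9.

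**Figure D1:**
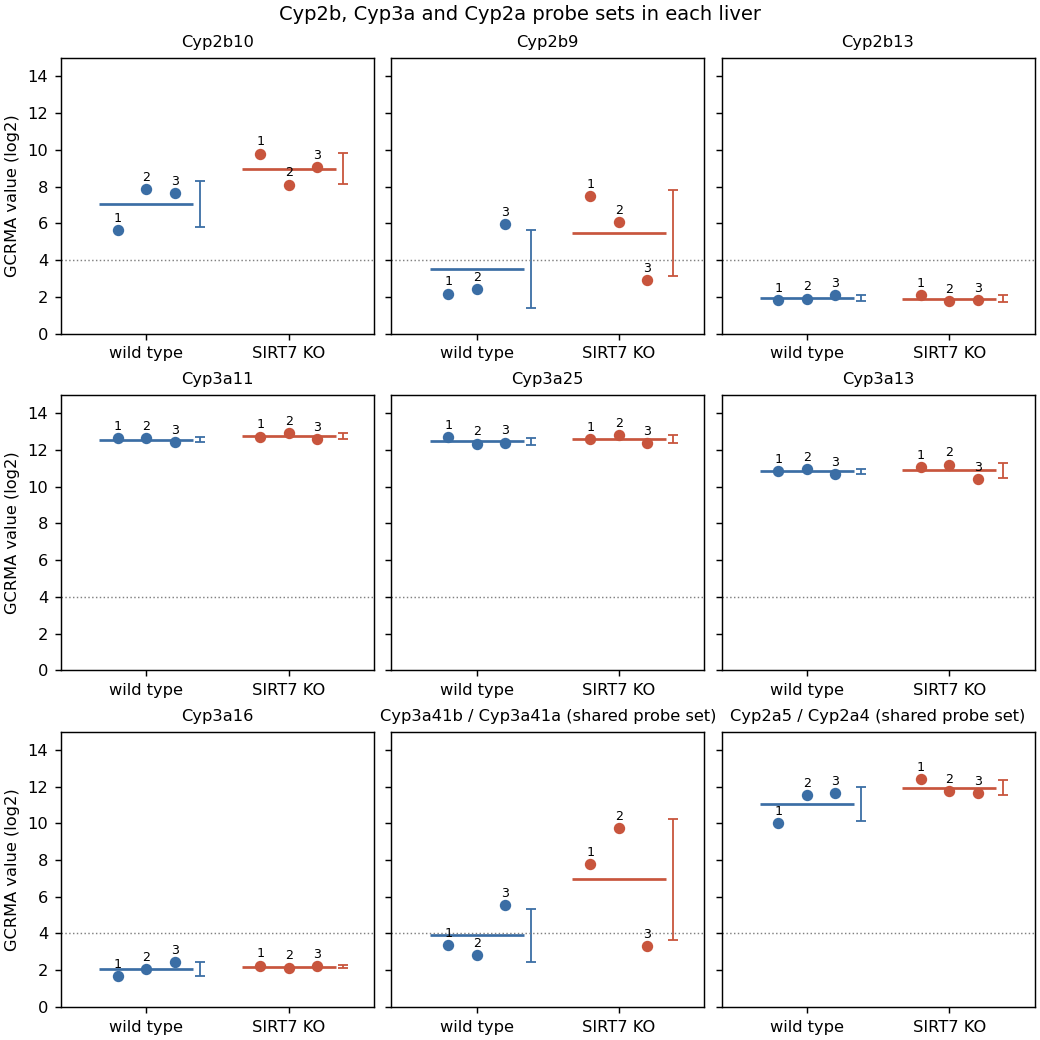
GCRMA expression values (log2) in each liver, with replicate numbers at the points, a horizontal line at the group mean and a bar of 1 SD beside it; the dotted line marks the expression filter at 4. Cyp2b10 is higher in all 3 knockout livers, Cyp2b9 and the Cyp3a41 probe set are high in wild-type replicate 3 and knockout replicates 1 and 2, and Cyp3a11, Cyp3a25 and Cyp3a13 are at similar levels in both groups.

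The Cyp3a genes with high values showed small differences. Cyp3a11, the main PXR-responsive steroid and drug hydroxylase of mouse liver, was at 12.64, 12.64 and 12.41 in wild-type livers and at 12.72, 12.93 and 12.60 in knockout livers. The groups overlapped, and the difference was 0.19 (SE 0.19, 95% interval -0.24 to 0.61, limma adjusted p = 0.853). Cyp3a25, a related hepatic gene of the same cluster, was at 12.69, 12.34 and 12.39 against 12.59, 12.81 and 12.38, with a difference of 0.12 (SE 0.20, interval -0.34 to 0.58).

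Cyp3a13, the member that lies apart from the main Cyp3a cluster on chromosome 5, was at 10.86, 10.96 and 10.70 in wild-type and 11.07, 11.19 and 10.40 in knockout livers. Knockout replicate 3 was the lowest of the 6 livers and knockout replicate 2 the highest. The difference was 0.05 (SE 0.24, interval -0.50 to 0.60), and it turned to -0.02, -0.04 and -0.10 without wild-type replicate 3, knockout replicate 1 and knockout replicate 2. Values of Cyp3a11 and Cyp3a25 are near the upper end of the array's range of 0.841 to 13.969, and saturation was not tested. The intervals do not exclude differences up to their bounds.

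Cyp3a16, a perinatal and female-biased member, was under the filter, at 1.66, 2.05 and 2.45 in wild-type and 2.25, 2.14 and 2.21 in knockout livers. Its female-biased neighbours were measured as well. The probe set shared by Cyp3a41a and Cyp3a41b was at 3.35, 2.83 and 5.54 in wild-type and at 7.79, 9.74 and 3.31 in knockout livers. As for Cyp2b9, wild-type replicate 3 and knockout replicates 1 and 2 were the high livers. The difference was 3.04 (SE 1.41, 95% interval -0.17 to 6.24, adjusted p = 0.803 by limma over all probe sets with a mean of at least 4), and it was 4.86 without knockout replicate 3 and 1.64 without knockout replicate 2. Cyp3a44 stayed under the filter, at 2.66, 3.08 and 3.31 against 3.85, 4.28 and 3.10.

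The probe set shared by Cyp2a5, the coumarin hydroxylase gene that responds to CAR and to clock output factors, and Cyp2a4, a female-biased steroid hydroxylase gene, was at 10.00, 11.54 and 11.65 in wild-type livers and at 12.40, 11.76 and 11.64 in knockout livers. Wild-type replicate 1 was the lowest and knockout replicate 1 the highest liver, as for Cyp2b10, and the groups overlapped by 0.01. The difference was 0.87 (SE 0.43, interval -0.10 to 1.85, limma adjusted p = 0.803), and 0.34 without wild-type replicate 1. Which of the paralogs gives the signal cannot be told apart. Cyp2a12, a subfamily member with its own probe set, differed by -0.05 (SE 0.18).

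**Figure D2:**
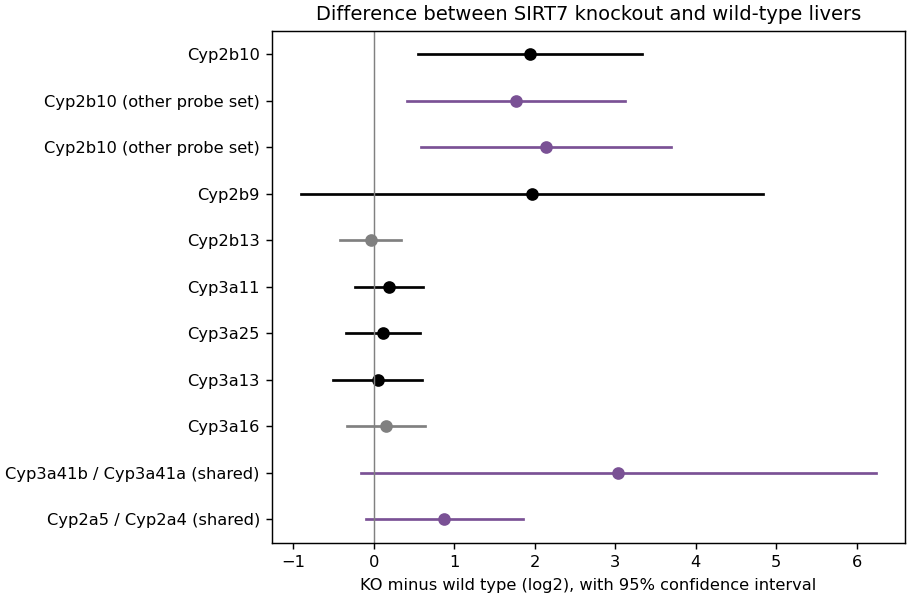
Differences between knockout and wild-type means (log2) with 95% confidence intervals from limma; black marks the probe set used for each gene, purple further or shared probe sets and grey genes under the expression filter. The intervals of the 3 Cyp2b10 probe sets lie above 0 before adjustment, those of Cyp3a11, Cyp3a25 and Cyp3a13 run from -0.50 at the lowest to 0.61 at the highest, and those of Cyp2b9 and Cyp3a41 are wide.

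Of the 7 measured genes 5 passed the filter, and limma called 0 of them at an adjusted p under 0.05, against 0.024% of the 8343 tested genes (2 genes, Sirt7 and Cxcl14). At an unadjusted p under 0.05 there was 1 gene, Cyp2b10, against 6.46% of tested genes, and the groups did not overlap in 1, again Cyp2b10, against 9.74%. The median difference of the 7 measured genes was 0.15, with 6 higher and 1 lower, beside a median of -0.03 over all 12393 genes, of which 45.3% were higher. Wild-type replicate 1 was the lowest liver in 3 of the 7, and it was the lowest in 17.5% of tested genes. Knockout replicate 2 was the highest liver in 3 of the 7, and the highest in 10.5% of tested genes. Over all tested genes, knockout replicate 1 was the most frequent lowest liver, in 29.0%, while it was the highest in 20.6%, close to the 20.4% of knockout replicate 3.

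**Figure D3:**
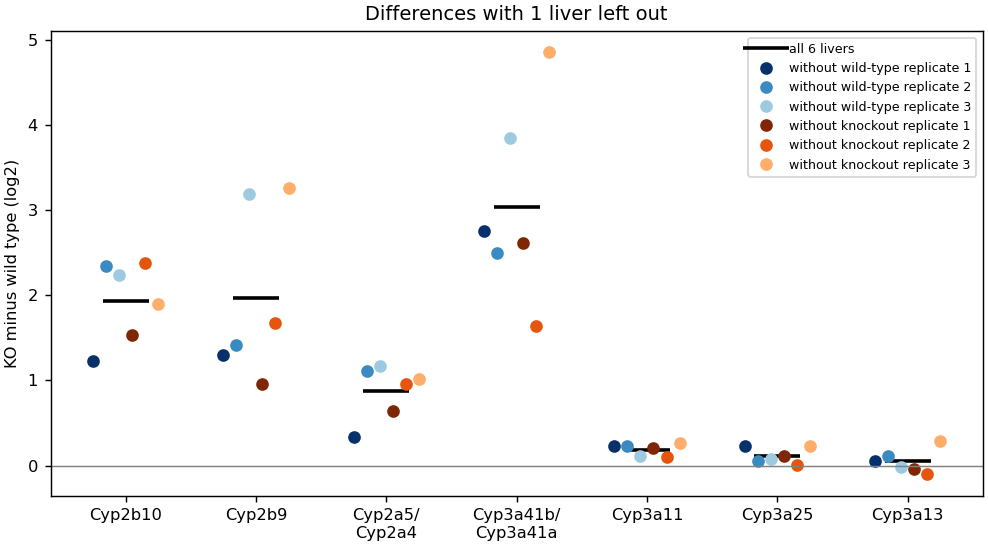
Differences between knockout and wild-type means (log2) with all 6 livers (black bars) and with each liver left out in turn (points). Cyp2b10 ranges from 1.23 to 2.38, Cyp2b9 from 0.96 to 3.26 and the Cyp3a41 probe set from 1.64 to 4.86, while Cyp3a11, Cyp3a25 and Cyp3a13 stay between -0.10 and 0.29.

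The receptor genes were measured beside their targets. Nr1i3, which encodes CAR, was at 9.06, 9.88 and 10.21 in wild-type and 10.02, 9.81 and 10.68 in knockout livers, a difference of 0.45 (SE 0.34, limma adjusted p = 0.807). Nr1i2, which encodes PXR, was at 7.44, 7.57 and 7.998 against 8.02, 7.85 and 8.31, a difference of 0.39 (SE 0.22) with 0.60 on its second probe set. Rxra differed by 0.01 (SE 0.22). All 3 receptor genes were lowest in wild-type replicate 1, the liver with the least Cyp2b10 signal and the lowest in 17.5% of tested genes. For Rxra it was barely so, at 11.21 against 11.24 in knockout replicate 2. Nr1i3 and Nr1i2 were highest in knockout replicate 3 and Rxra in wild-type replicate 3, while Cyp2b10 was highest in knockout replicate 1.

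Among the 20 tested genes of receptors and coregulators 8 were higher and 12 lower, with a median of -0.04. With limma's unadjusted p under 0.05 were 1 gene higher in knockout, Nr0b2, which encodes the corepressor SHP (0.59, SE 0.25), and 1 gene lower, Foxa2, which encodes a hepatic pioneer factor (-1.03, SE 0.42), against 3.04% and 3.42% of all tested genes in those directions. Foxa3 differed by -0.48 (SE 0.27). None passed limma after adjustment (0 genes; the background of called genes is the 0.024% given above).

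The reductase partner and heme supply genes showed 9 higher and 7 lower of 16 tested, with a median of 0.05. Alas1, the rate-limiting enzyme of heme synthesis and a target of CAR and PXR, was at 7.09, 10.88 and 10.74 in wild-type and 8.52, 9.54 and 10.10 in knockout livers. Wild-type replicate 1 was far below the other wild-type livers, and the difference was -0.18 (SE 0.92). Its second probe set was also lowest in wild-type replicate 1, at 8.42. Blvrb, which encodes a biliverdin reductase, differed by 0.87 (SE 0.35) and was the 1 gene of the 16 with an unadjusted p under 0.05, against 6.46% of all tested genes. Alad and Cpox, further enzymes of heme synthesis, differed by -0.36 (SE 0.23) and 0.39 (SE 0.26).

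The other CAR and PXR targets did not share a direction. Of 32 tested genes 15 were higher and 17 lower, with a median of -0.03, equal to the median over all tested genes. The median was 0.01 under quantile normalization, 0.08 with means of probe sets (19 higher and 13 lower) and 0.13 over single probe sets (29 higher and 17 lower), and it ran from -0.08 without wild-type replicate 1 to 0.09 without knockout replicate 1, so its sign turned with the setting. An unadjusted p under 0.05 was reached by 1 gene in the higher and 4 in the lower direction, against 3.04% and 3.42% of all tested genes, and the groups did not overlap in 3 higher and 5 lower, against 4.27% and 5.48% of all tested genes. The 3 smallest p belonged to genes that were lower in knockout livers: the sulfotransferase gene Sult5a1 (-1.49, SE 0.34, limma adjusted p = 0.544), and the cytochrome genes Cyp2c37 (-4.27, SE 1.08) and Cyp2c50 (-0.60, SE 0.17). Sult5a1 was at 10.47, 11.25 and 11.22 in wild-type and 9.79, 8.79 and 9.89 in knockout livers, the opposite side from Cyp2b10.

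A further list held Dbp, Tef and Hlf, clock output genes of the PAR bZIP group, whose proteins bind motifs of the TTATGCAA type. It also held other clock-related genes, and Nr1i3 and Alas1, which are counted in the lists above too. Of its 16 tested genes 10 were higher and 6 lower, with a median of 0.07. That median was -0.15 with array weights and 0.27 without wild-type replicate 3. Nr1d1, which encodes the clock repressor REV-ERB alpha, differed by 0.86 (SE 0.23), Dbp by 0.64 (SE 0.27) and Npas2, a BMAL1 partner, by -1.27 (SE 0.40), all without passing adjustment (limma adjusted p between 0.678 and 0.772). Dbp was highest in knockout replicate 1, at 7.37 against 6.56 and 6.36 in the other knockout livers and 6.05 to 6.16 in wild type. Tef, also highest there, differed by 0.59 (SE 0.27), and by 0.17 and 0.13 on its other probe sets. Hlf differed by -0.17 (SE 0.22), and by -0.29 on its second probe set. On the second Dbp probe set the difference was 0.50 (SE 0.33), and the groups overlapped.

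**Figure D4:**
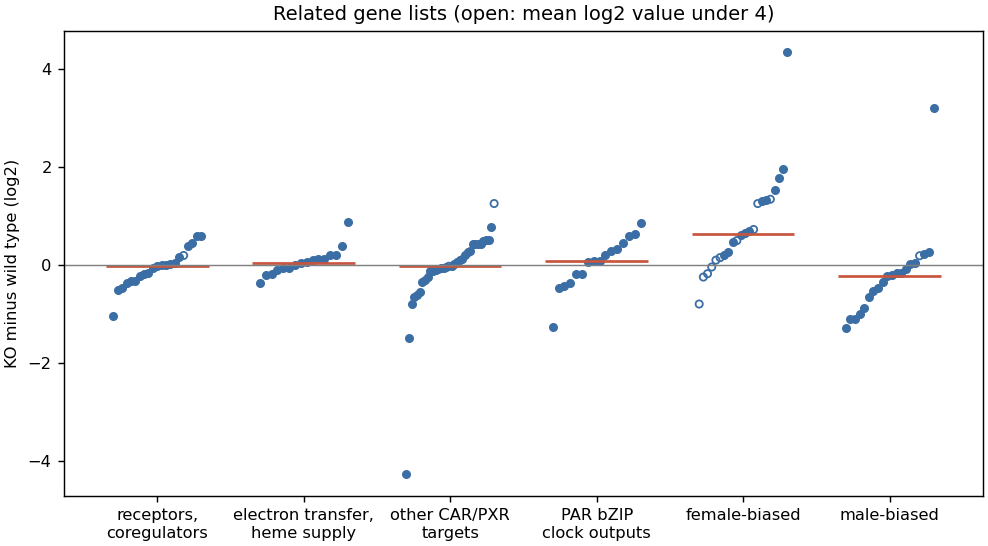
Differences between knockout and wild-type means (log2) of each gene in 6 related lists, ordered within a list, with the list's median as a red line and open points for genes under the expression filter. The CAR and PXR target list is centred near 0, at a median of -0.02 with the genes under the filter, while the female-biased list has a median of 0.64 and the male-biased list one of -0.22.

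Female-biased liver genes, the class to which Cyp2b9, Cyp2b13, Cyp3a16 and Cyp3a41 belong, were mostly higher. Of 22 genes on the array 18 were higher and 4 lower in knockout livers, with a median of 0.64. Without the 3 listed cytochromes 16 of 19 were higher, with a median of 0.65, 7 had an unadjusted p under 0.05, all higher, and the groups did not overlap in 3, against 2.86% and 4.49% of all 12393 genes in that direction. The smallest p among the tested genes were those of the steroid and drug hydroxylase gene Cyp2c39 (4.34, SE 1.05), Prom1 (0.62, SE 0.18) and the transcription factor gene Tox (1.32, SE 0.49), and 0 genes of the list passed limma after adjustment.

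By liver, the median deviation of these 19 genes from their own means was -0.68, -0.31 and 0.04 in the wild-type group and 0.31, 0.81 and -0.14 in the knockout group. Wild-type replicate 3 thus lay above knockout replicate 3, as for Cyp2b9 and Cyp3a41, and the groups overlapped. Male-biased genes had 14 lower and 6 higher of 20 (30% higher, against 45.3% of all 12393 genes), with a median of -0.22. Their deviations were 0.35, 0.20 and -0.04 in wild type against -0.37, -0.20 and 0.19 in knockout. The lowest p in that list were those of Serpina12 (-1.10, SE 0.44), an adipokine gene, Hsd3b5 (-0.66, SE 0.28), a male-specific steroid enzyme gene, and Susd4 (-1.28, SE 0.55). The largest difference of the list went the other way, in Ugt2b38 (3.19, SE 1.44). The Y-linked gene Eif2s3y was between 10.59 and 11.28 in all 6 livers, so a Y-linked transcript was detected in each. Xist, which is counted in the female-biased list among its lower genes, was under the filter. Its means were 3.70 in wild-type and 2.90 in knockout livers. All 12 tested female-biased genes were higher in knockout livers. The wild-type means of Cyp2b9, Slc22a26 and Fmo2 (3.52, 3.74 and 3.95) lay under the filter, and their knockout means lay above it. The filter can therefore favour genes that are higher in knockout livers, and without it the list's median was 0.64. For these 12 genes alone, Cyp2b9 among them, the median was 0.996 with all livers. It dropped to 0.638 when wild-type replicate 1 was omitted and to 0.745 when knockout replicate 2 was, and it was 1.76 when wild-type replicate 3 was omitted.

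**Figure D5:**
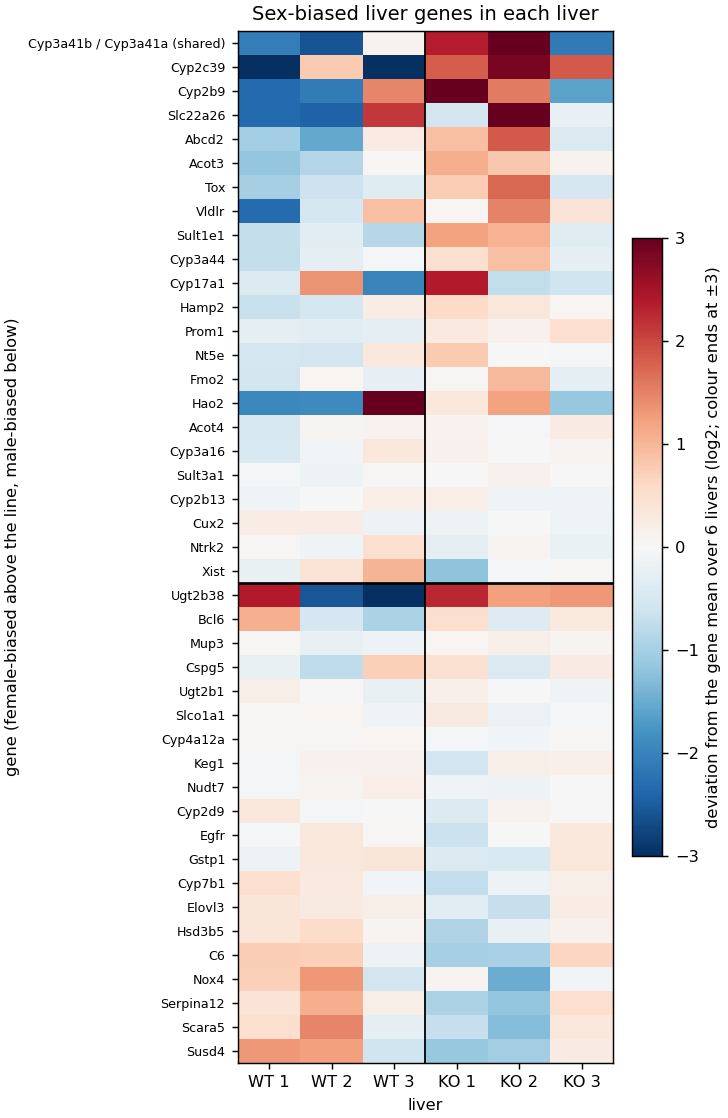
Deviation of each gene from its mean over the 6 livers (log2, colour scale ending at ±3) for female-biased genes above the horizontal line and male-biased genes below it, with wild-type livers on the left. Cyp2b9 and the Cyp3a41 probe set are high in wild-type replicate 3 and knockout replicates 1 and 2, and the female-biased genes are lowest in wild-type replicate 1 as a group.

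Genes whose values followed the listed ones most closely over the 6 arrays are given as a description, since 6 points chosen from 8343 genes yield high correlations readily. For Cyp2b9 they were Rabgap1 (Pearson r = 0.993), the kinetochore gene Spc25 (0.993) and Pfdn2 (0.991). For Cyp2b10 they were Ten1, a telomere-capping gene (0.987), Rad51b, a DNA repair gene (0.975), and Pex11a, a peroxisome gene (0.971). For Cyp3a11 they were Mfn1 (0.982), C1s1 (0.98) and Dpagt1 (0.973). For Cyp2b13, whose values span about 0.3 log2 units near the lower end, they were Oas3 (0.986), Fxr1 (0.981) and Zbtb14 (0.975).

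Markers of zones and cell types give the setting of these values. Pericentral genes, whose zone of the liver lobule is where Cyp2b10, Cyp3a11 and Cyp2a5 are typically expressed, had 4 higher and 9 lower of 13 tested, with a median of -0.07, and periportal genes had 7 higher and 4 lower of 11, with a median of 0.09. Hepatocyte markers were at a mean log2 level of 12.9 to 13.1 in wild-type and 12.7 to 13.1 in knockout livers. Of the 8 tested, 5 were lower and 3 higher, with a median of -0.23, and the smallest p was that of Serpinc1, the antithrombin gene (-0.63, SE 0.22, limma adjusted p = 0.76), whose groups did not overlap. Their median deviation was lowest in knockout replicates 1 and 2 (-0.31 and -0.21), the knockout livers with high Cyp2b9 and Cyp3a41 values, and was 0.20 in knockout replicate 3. In wild-type replicate 3, which also had high Cyp2b9 and Cyp3a41 values, it was 0.17. Neutrophil markers (4 of 6 on the array, all 4 higher) were at 5.33 to 6.11 and 5.42 to 7.19, and erythroid markers (5 of 9, 3 higher) at 7.37 to 8.10 and 8.05 to 8.29. Of the 4 tested erythroid genes 3 were higher and 1 lower, with a median of 0.58. Slc4a1 (1.32, SE 0.38) and Hba-a2 (0.66, SE 0.27) had a limma unadjusted p under 0.05, against 3.04% of all tested genes in that direction. The part of these cell types in the differences of the cytochrome genes was not tested. In whole liver, fewer cells of a type and less RNA per cell cannot be told apart.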

How the data were processed

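Per the submitters' processing notes, the authors made 1 expression value per probe set and array with GCRMA 2.20.0 in R 2.11.1; the settings used are not stated in those notes. The deposited values fit a log2 scale, judging by their range. Gene names came from the platform annotation, in which 20380 of 22626 probe sets have 1 symbol. The 2 groups were compared by limma 3.58.1 (R 4.3.3; lmFit and eBayes, 2-sided, without a replicate block) over 8343 genes with a mean log2 value of at least 4, with Benjamini-Hochberg adjustment. Genes under that level take values from a fit over all 12393 genes, and shared or second probe sets from a fit over all probe sets with a mean of at least 4. The test was checked on simulated data. Separate animals are not stated in the labels, and p-values may therefore reflect technical spread only, and the number of arrays limits the precision. The members and the 19 further gene lists were chosen with earlier results of these data known. Named are the listed genes, receptors, paralogs, Dbp, Tef, Hlf, Alas1 and the 3 genes most correlated with a member. The up to 3 smallest p of each list described are named too, except in the zone and cell type lists. Of those lists only Serpinc1, Slc4a1, Hba-a2, Fabp2 and Cela1 are named. Cxcl14, Eif2s3y and Xist were added after their values were seen. Marker lists of cholangiocytes, macrophages, endothelium, stellate cells, lymphocytes, gut and pancreas were also computed. Their median differences over tested genes were 0.20, 0.12, 0.17, -0.16, 0.17, -0.17 and -0.47. These came from 4, 8, 7, 7, 5, 1 and 1 genes, so the gut and pancreas values are those of Fabp2 and Cela1 alone. With the genes under the filter, the cholangiocyte, gut and pancreas medians were -0.02, -0.06 and 0.04. Promoters came from RefSeq tables of GRCm38.p6 and were aligned globally (Biopython 1.88). Alternatives were no filter, a filter at 6, means of probe sets, single probe sets, quantile normalization, median centring, array weights, a robust intensity trend, a replicate block and leaving out each liver.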

Additional observations from a re-analysis of the deposited data

How the results depend on the processing

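Cyp2b10, Cyp2b9, Cyp3a11, Cyp3a25 and the shared Cyp2a5 and Cyp3a41 probe sets stayed higher in knockout livers under every alternative run. With array weights, which ran from 0.31 for knockout replicate 3 to 6.12 for knockout replicate 2, limma called 1748 genes, and Cyp2b9 (3.25, adjusted p = 0.0181) and the Cyp3a41 probe set (6.05, adjusted p = 0.0102) passed, while the Cyp2b10 difference fell to 0.95 (adjusted p = 0.178). The weights were estimated from 6 arrays with 4 residual degrees of freedom, so these calls may be unstable. For Cyp2b9 and the Cyp3a41 probe set the adjusted p was at least 0.279 and 0.292 in every other alternative. The number of called genes was 1 with means of probe sets and 1 to 38 without 1 liver (38 without wild-type replicate 3, 7 without wild-type replicate 2, 5 without knockout replicate 1, 1 without knockout replicate 2 or 3). Without 1 liver, Cyp2b13 lay between -0.145 and 0.045, Cyp3a13 between -0.10 and 0.29 and Cyp3a16 between -0.043 and 0.35, so their signs turned; the cause was not tested. The median of the listed genes was 1.77 with each probe set on its own, where Cyp2b10 counts 3 times. Correlations of deviations between same-numbered livers were -0.09, -0.09 and -0.19, and those between livers of unlike number ran from -0.25 to 0.31. With 3 livers per group these values cannot settle whether replicate numbers pair the livers. With a replicate block limma called 2 genes, and the Cyp2b10 difference had an SE of 0.71 and an adjusted p of 0.878. Values near the lower end of the scale limit what can be said of Cyp2b13 and Cyp3a16.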
